A study of Mus musculus with 3 samples.

Results

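Genes of the families of transcription factors that set cell lineages were compared on 3 two-colour arrays between RNA of mouse spleen and UMRR, a universal reference RNA for mouse. The genes were chosen by symbol: HOX, SOX, forkhead, GATA, KLF, TCF, IRF, STAT, ETS and ELF, NF-kappa B and REL, RUNX, Ikaros, nuclear receptor (Nr), MEF2, CEBP, PAX and TBX, without Stat2. A gene counted as a member if at least 1 probe had a value other than 0 on all 3 arrays, which held for 48 of the 65 genes with such a symbol and for 6077 named genes in all. The members include 41 genes of proteins of these families and 7 genes that a symbol search also brings in, namely 4 antisense RNAs (Hoxaas2, Hoxaas3, Hoxd3os1 and Sox5os3), the inhibitors Nfkbib and Nfkbie, and the receptor partner Nr2c2ap. No symbol of the RUNX and CEBP families was found on the array, and the PAX and TBX families had no member measured on all 3 arrays.

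The 3 arrays form 1 group. On each, cRNA from a purchased spleen total RNA carried Cy5 (red) and cRNA from the purchased reference, pooled from mouse cell lines, carried Cy3 (green), after a single round of amplification. The labels give no strain, sex, age or number of animals and no dye swap, so dye and RNA source cannot be told apart. One product number per RNA covers all arrays, so the p-values describe the spread between arrays, which may be technical.

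Each value is a signed log ratio of the 2 channels. Its base and numerator are not stated, and a positive value is called likely higher in spleen, after the dye labels, with red commonly set over green, and after the signs of blood cell markers, which are therefore no independent evidence of the direction. All of the measured markers fixed for B cells (5 of 5), macrophages (4 of 4), erythroid cells (5 of 5) and neutrophils (3 of 3) and 4 of 5 for T cells were positive, Cd3d being negative, and 5 of 6 fibroblast markers were negative. The macrophage markers Csf1r and Vcam1 were listed at 0. Exocrine pancreas markers were positive too (10 of 11 measured, median 4.38, range -0.14 to 5.22). A ratio shows neither level by itself, and in bulk RNA fewer cells of a type and less RNA per cell cannot be told apart. Array ratios correlated at 0.952 to 0.969 across probes, and exactly 0 was deposited for 24.2% to 26.8% of the probes of an array and read as no measurement.

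Lineage transcription factors bind short DNA sequences near their target genes and, in combinations, switch on the genes of one cell type and hold back those of others. In lymphocytes, Ikaros proteins, E proteins such as the product of Tcf3, FOXO factors and MEF2C act in the making and maturation of B and T cells, and interferon regulatory factors, STAT proteins and NF-kappa B carry signals from receptors to the genome. SOX and HOX genes, some GATA genes such as Gata6 and many nuclear receptor genes are known for patterning and for the development of mesenchyme, gut, vessels and nerve cells.

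The 8 members past the test with a mean ratio of at least 1 in size were Mef2c, Ikzf3, Foxo1, Nfkbie and Nr2f2 on the positive side and Sox11, Sox9 and Nr4a2 on the negative side. Upstream windows were found in the RefSeq-based table (GRCm38.p6) for 37 of the 48 members and for 6 of these 8, Ikzf3 and Sox9 being without one. These 6 are shown because they carry the largest ratios. Each run gives the 200 bases before the start of the gene, 5′ to 3′ on the strand of the gene, and for Mef2c, with 3 starts in the table, those before the first one listed. Capitals mark matches on either strand to one of 6 motifs. The TATA box was searched as TATAAA, and the CCAAT box under its own letters. The GC box was searched as GGGCGG. For ETS proteins the core GGAAGT was used. The half-site of the factor CREB was searched as TGACG. The NF-kappa B site was GGG and, after 3 bases of any kind, TTCC. Neighbouring matches may overlap, as those of the GC box do in Nr4a2.
Mef2c, chr13:83503834-83504033, + strand: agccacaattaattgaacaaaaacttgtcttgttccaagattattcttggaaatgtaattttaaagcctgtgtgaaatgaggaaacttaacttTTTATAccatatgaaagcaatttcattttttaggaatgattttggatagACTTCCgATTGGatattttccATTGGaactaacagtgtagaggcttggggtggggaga
Foxo1, chr3:52268137-52268336, + strand: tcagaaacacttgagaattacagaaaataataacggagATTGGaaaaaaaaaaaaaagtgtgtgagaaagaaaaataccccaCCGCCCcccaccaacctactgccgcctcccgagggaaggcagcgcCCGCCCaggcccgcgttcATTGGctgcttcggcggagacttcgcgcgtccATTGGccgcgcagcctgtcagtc
Nfkbie, chr17:45555500-45555699, + strand: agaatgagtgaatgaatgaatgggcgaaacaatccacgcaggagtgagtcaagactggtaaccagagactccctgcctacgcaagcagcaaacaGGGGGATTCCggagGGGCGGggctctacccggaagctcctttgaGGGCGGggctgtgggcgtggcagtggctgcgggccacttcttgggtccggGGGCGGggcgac
Nr2f2, chr7:70366747-70366946, - strand: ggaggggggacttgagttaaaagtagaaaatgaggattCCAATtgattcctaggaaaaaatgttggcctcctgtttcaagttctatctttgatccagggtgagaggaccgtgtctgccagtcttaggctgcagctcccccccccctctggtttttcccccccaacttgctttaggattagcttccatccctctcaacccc
Nr4a2, chr2:57124004-57124203, - strand: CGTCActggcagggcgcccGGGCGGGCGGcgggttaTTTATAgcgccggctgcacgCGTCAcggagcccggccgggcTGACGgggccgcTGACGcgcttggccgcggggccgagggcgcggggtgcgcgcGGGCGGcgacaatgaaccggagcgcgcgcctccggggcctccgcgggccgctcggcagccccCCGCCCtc
Sox11, chr12:27342719-27342918, - strand: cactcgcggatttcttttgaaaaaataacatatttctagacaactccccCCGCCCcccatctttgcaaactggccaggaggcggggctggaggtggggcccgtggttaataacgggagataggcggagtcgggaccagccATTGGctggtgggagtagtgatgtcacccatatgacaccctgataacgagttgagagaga

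The windows differ in base composition and motifs. The Nr4a2 window, before an immediate early gene, held 37 CpG pairs and 81% G or C, with 4 GC boxes, 4 CREB half-sites and 1 TATA box, whereas the Mef2c window held 1 CpG pair and 33.5% G or C, with 2 CCAAT boxes, 1 TATA box and the 1 ETS core found in the 6 windows. The window of Nfkbie, which codes for an inhibitor that holds NF-kappa B in the cytoplasm, was the 1 window of the 6 with an NF-kappa B match, at bases -106 to -97 counted back from the start, beside 3 GC boxes. Foxo1 had 3 CCAAT boxes and 2 GC boxes, Sox11 had 1 of each, and Nr2f2 had 1 CCAAT box. Among all 32851 tabulated windows, 3.91% held the NF-kappa B motif, 15.7% the CREB half-site, 31% the GC box, 29.3% the CCAAT box, 16.7% the ETS core and 9.96% the TATA box. Among the 37 member windows these shares were 5.41%, 27%, 56.8%, 35.1%, 13.5% and 10.8%. The median window held 15 CpG pairs for the members and 5 over the table. The table counts every listed start of a gene, whereas each member entered once, by its first listed start. The shares and medians of the 2 sets are thus on unlike units, and their differences were not tested. A match describes the letters and is not shown to be a site of binding.

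Of the 48 members, 36 passed the gene test (limma moderated test of the mean ratio against 0, two-sided, Benjamini-Hochberg adjusted p under 0.05 over 6077 genes). That is 75%, beside 70.3% of all genes. Positive ratios passed for 23 members (47.9%, beside 33.2% of all genes) and negative ratios for 13 (27.1%, beside 37.1%). The median of the members was 0.09 and that of all genes -0.03, and the median size was 0.49 for members and 0.36 for all genes. Ratios of at least 1 in size passed for 8 members (16.7%, beside 14.2% of all genes), 5 of them positive (10.4%, beside 7.57%) and 3 negative (6.25%, beside 6.58%). The share of members called, and that of large ratios, lay near the background. The split by sign leaned to the positive side more than among all genes, a difference that was not tested. It depended on the processing. With a running median over 5 neighbouring probe numbers subtracted, 19 members were positive and 15 negative, beside 1918 and 1944 of all genes. The median of the members was then -0.004 and that of all genes -0.0009. With 20 probe numbers the counts were 24 and 13, beside 2140 and 2188, and the medians 0.19 and -0.002.

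**Figure D1:**
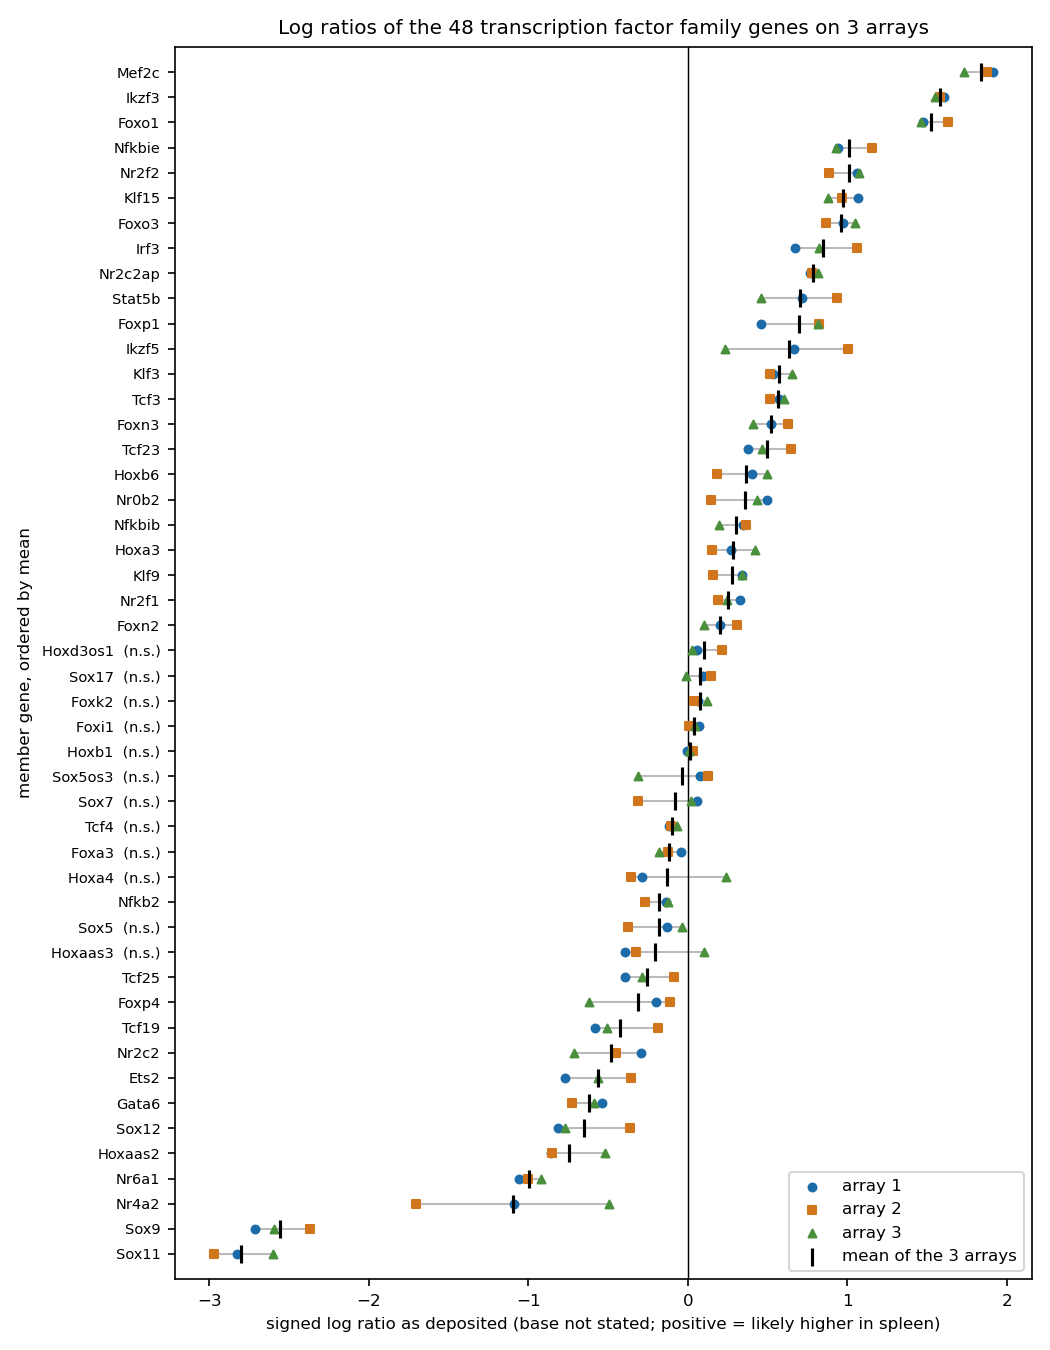
Signed log ratio of the 48 member genes (horizontal axis, base not stated, positive likely higher in spleen), ordered by mean. Circles, squares and triangles are arrays 1, 2 and 3, the grey line spans them, the black bar is their mean, and n.s. marks the 12 genes not past the test. Sox9 and Sox11 lie below -2 on all 3 arrays, apart from the other members, while Mef2c, Ikzf3 and Foxo1 lead the positive end.

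The 12 members that kept their direction and their call under all 15 other settings of the processing were Mef2c, Ikzf3, Foxo1, Nfkbie, Nr2f2, Klf15, Foxo3, Irf3, Nr2c2ap, Nr6a1, Sox9 and Sox11. The share of all genes that did so was not computed. These 12 of 48 members passed against a 1.5-fold change if the base is 2, as did 1208 of all 6077 genes. The other 24 called members lost their call under at least 1 setting. All 24 did so against a 1.5-fold change if the base is 2, and for 19 of them this also held if the logs are natural. Settings that ended further calls are given below beside the genes: 0 kept as a value, a running median over 5 or 20 neighbouring probe numbers subtracted, no moderation of the variance, or an array left out.

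Mef2c, a MADS-box factor of muscle, nerve cells and B cells, was the highest member. Its ratios were 1.91, 1.88 and 1.73 on arrays 1 to 3, with a mean of 1.84 ± 0.097 (SD, n = 3) and a limma adjusted p of 7.36e-07. This is 3.58-fold if the base is 2 and 6.30-fold if the logs are natural. All 3 arrays lay close together. Its 3 probes did not: their means were 1.22, 1.62 and 2.68, and the lowest value of the highest probe (2.63) lay above every value of the others. Each probe was called positive by itself. Over all 11086 probes 68.3% were called, 32.3% positive and 36% negative.

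Ikzf3 (Aiolos), an Ikaros zinc finger protein of maturing B cells, followed. Ratios of 1.60, 1.58 and 1.55 gave a mean of 1.58 ± 0.027 (SD, n = 3, limma adjusted p = 9.55e-07), which is 2.99-fold in base 2 and 4.85-fold in natural logs. The narrow spread belongs to the average of 2 probes that differed in size, with means of 2.16 and 1.00 and no overlap on the arrays. The second Ikaros member, Ikzf5 (Pegasus), read 0.66, 1.01 and 0.23, so the arrays agreed in sign and not in size (mean 0.63 ± 0.39, SD, n = 3, limma adjusted p = 0.00438). Its call ended without moderation of the variance and with 0 kept (0.33, adjusted p = 0.0848), a further probe being measured on 1 array, at 0.11. With 5 probe numbers subtracted it was at 0.99.

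Forkhead factors gave 5 positive and 1 negative call among 9 measured genes, with a median of 0.20. Over all genes 70.3% were called, 33.2% positive and 37.1% negative. Foxo1, which acts downstream of insulin and antigen receptor signals and is needed for B cell development and lymphocyte homing, read 1.47, 1.63 and 1.46 (mean 1.52 ± 0.092, SD, n = 3, limma adjusted p = 1.63e-06). Its relative Foxo3 read 0.97, 0.86 and 1.05 (mean 0.96 ± 0.092, SD, n = 3, limma adjusted p = 1.58e-05). On every array Foxo1 was above the highest value of Foxo3. The separate probes of Foxo1 averaged 1.93 and 1.11, so the lower one lay near the ratio of Foxo3. With the running median subtracted Foxo3 dropped to 0.55 (5 probe numbers) and 0.59 (20 probe numbers) and stayed past the test.

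The FOXP genes went both ways. Foxp1, a factor of early B cell development, read 0.46, 0.82 and 0.81 (mean 0.70 ± 0.21, SD, n = 3, limma adjusted p = 0.000319), and a further probe gave 0.85 and 0.71 on arrays 1 and 2 with 0 on array 3. With 0 kept its mean was 0.41. Its call ended without moderation of the variance. Foxp4 read -0.20, -0.11 and -0.62 (mean -0.31 ± 0.27, SD, n = 3, limma adjusted p = 0.0294), where array 3 stands apart. Without array 3 the mean was -0.16 (adjusted p = 0.233) and without array 1 -0.37 (adjusted p = 0.0559). The call also ended with the running median subtracted (-0.13 and -0.08), without moderation and with 0 kept (adjusted p = 0.213).

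The remaining forkhead ratios were smaller. Foxn3, a repressor linked to the cell cycle checkpoint, had a mean of 0.52 ± 0.11 (SD, n = 3), which dropped to 0.30 with a running median over 5 probe numbers subtracted. Foxn2 had 0.20 ± 0.10 (SD, n = 3, limma adjusted p = 0.0316), and its call ended without array 1 (adjusted p = 0.112), without array 2 (0.106), without moderation and with 0 kept (0.0859). With 5 probe numbers subtracted it was at 0.36. Foxk2 (0.07), Foxi1 (0.04) and Foxa3 (-0.12), the last a factor of liver and gut, did not pass. The Foxk2 mean joins 2 probes without overlap on the arrays. One averaged 0.20 and was called positive, and the other averaged -0.05 and was not called. With the running median over 5 probe numbers subtracted Foxk2 was at -0.07, and Foxi1 passed on the other side (-0.55, adjusted p = 0.00168).

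All 3 measured KLF genes, zinc finger factors that bind GC-rich boxes, were called positive, as were 33.2% of all genes. Klf15, known for control of amino acid and glucose metabolism, read 1.06, 0.97 and 0.88 (mean 0.97 ± 0.093, SD, n = 3, limma adjusted p = 1.52e-05), and its 2 probes averaged 1.11 and 0.83. Klf3, a repressor of the same family, read 0.54, 0.52 and 0.65 (mean 0.57 ± 0.073, SD, n = 3, limma adjusted p = 0.000192). Averaged over probes, the groups of values of Klf15 and Klf3 did not overlap. Separate probes did: 1 of Klf15 read 1.03, 0.78 and 0.70, and 1 of Klf3 read 0.79, 0.85 and 0.77. The other Klf3 probe averaged 0.34. A running median over 5 probe numbers moved Klf3 to 0.89. Klf9, a target of glucocorticoids and thyroid hormone, read 0.34, 0.16 and 0.34 (mean 0.28 ± 0.10, SD, n = 3, limma adjusted p = 0.00866). Its call ended without array 1 (0.25, adjusted p = 0.0618), without array 3 (0.25, adjusted p = 0.0528), without moderation, with 0 kept (adjusted p = 0.0513) and with 5 probe numbers subtracted, where the mean was -0.0030.

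The 5 measured genes named TCF belong to different protein families, with 2 positive and 2 negative calls. Over all genes 33.2% were positive and 37.1% negative. Tcf3, which codes for the E2A proteins needed to start B cell development, read 0.57, 0.51 and 0.60 (mean 0.56 ± 0.044, SD, n = 3, limma adjusted p = 0.000165), with probe means of 0.62 and 0.50 that overlapped on the arrays. With 5 probe numbers subtracted it was at 0.27 and still called. Tcf23, a basic helix-loop-helix gene, had 0.50 ± 0.14 (SD, n = 3). Tcf19 had -0.42 ± 0.21 (SD, n = 3, limma adjusted p = 0.0041), and its call ended with 0 kept (adjusted p = 0.0842). A running median over 5 probe numbers moved it to -0.26. The calls of Tcf23 and Tcf19 both ended without moderation.

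Tcf4, which codes for the E protein E2-2 of plasmacytoid dendritic cells and nerve cells, was the 1 member whose probes were called in opposite directions. One probe read -0.39, -0.27 and -0.43 and another read 0.30, 0.22 and 0.27, both past the probe test, and the other probe averaged -0.19 and did not pass. Their average of -0.10 ± 0.028 (SD, n = 3) was not called (limma adjusted p = 0.196), so that average joins probes of opposite sign. With 0 kept it was at -0.07 and passed (adjusted p = 0.0366), and the median of the probes was -0.19. Tcf25 showed a like disagreement. Of its 4 probes 2 were called negative, the lowest at -0.73, and 2 were not called, the highest at 0.14. The mean of -0.25 (limma adjusted p = 0.0208) lost its call without array 1 (-0.19, adjusted p = 0.139), without array 3 (-0.24, adjusted p = 0.0626), without moderation and with 0 kept (adjusted p = 0.119). It was -0.39 and -0.15 with 5 and 20 probe numbers subtracted.

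**Figure D2:**
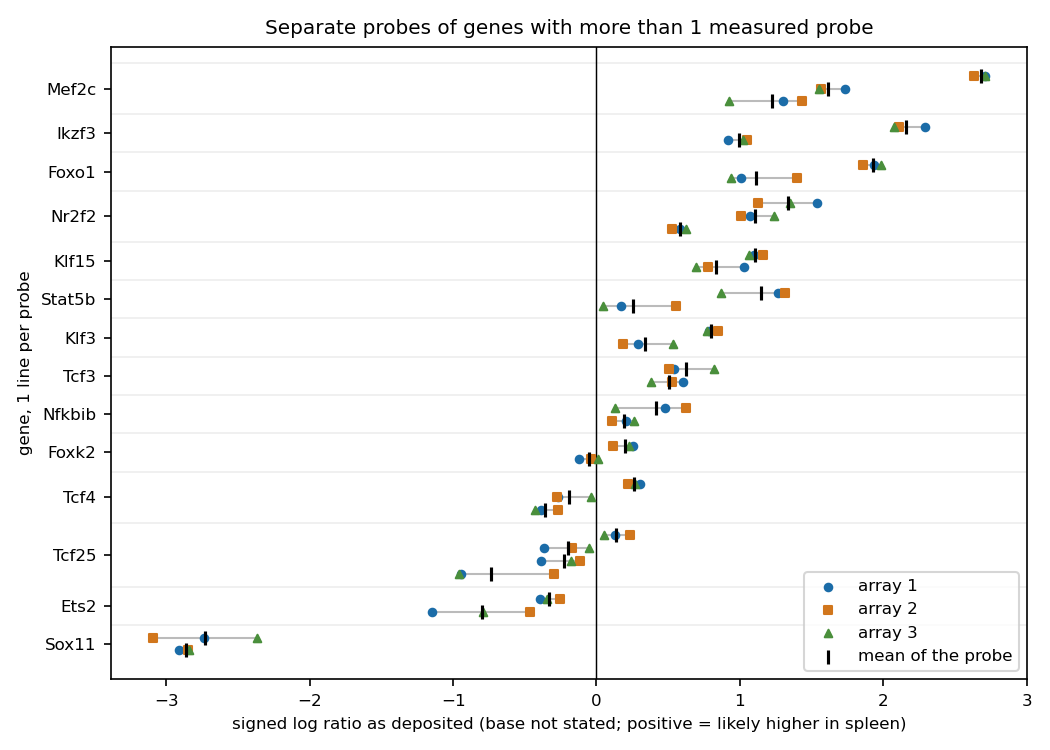
Signed log ratio (horizontal axis, base not stated) of each separate probe of the 14 members with more than 1 probe measured on all 3 arrays, 1 line per probe. Symbols are arrays 1 to 3 and the black bar is the mean of the probe. For Mef2c, Ikzf3, Foxo1 and Nr2f2 the lowest and highest probe lie on the same side of 0 and do not overlap, and Tcf4 has probes on both sides.

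In 11 of these 14 members the lowest and the highest probe by mean did not overlap on the arrays, with a median gap of 0.55 between their means. The same share over all genes with more than 1 probe was not computed. Such disagreement is thus not shown to be particular to the members. Gaps above 0.3 were found for 9, led by Mef2c (1.46), Ikzf3 (1.16), Stat5b (0.89) and Tcf25 (0.87). These gaps are several times the median SD of a member over the arrays (0.12). The other 34 members rest on 1 probe, for which no such comparison exists. Probe sequences and strands were not analysed here, so which transcript or family member a probe read is unknown.

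The 1 measured IRF gene and the 1 measured STAT gene were positive, a call that 33.2% of all genes had. Irf3, which switches on interferon genes after viral sensing, read 0.67, 1.06 and 0.82 (mean 0.85 ± 0.20, SD, n = 3, limma adjusted p = 0.000102). Stat5b, which carries cytokine and growth hormone signals, read 0.72, 0.93 and 0.46 (mean 0.70 ± 0.24, SD, n = 3, limma adjusted p = 0.000469). One of its probes averaged 1.15 and was called, while the other averaged 0.26 and was not. The gene's call ended without moderation.

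In the NF-kappa B family the inhibitors and the DNA-binding subunit differed in sign. Nfkbie (I kappa B epsilon) read 0.94, 1.15 and 0.93 (mean 1.01 ± 0.13, SD, n = 3, limma adjusted p = 1.79e-05). With 0 kept it was at 0.63, as a further probe was measured on array 1 alone, at 0.79. Nfkbib (I kappa B beta) read 0.34, 0.37 and 0.20 (mean 0.30 ± 0.093, SD, n = 3, limma adjusted p = 0.00542), and its call ended without moderation. Nfkb2, whose product p100 is processed to the subunit p52, read -0.14, -0.27 and -0.13 (mean -0.18 ± 0.081, SD, n = 3, limma adjusted p = 0.0435). This smallest called ratio of any member lost its call without array 1, 2 or 3 (adjusted p = 0.107, 0.136 and 0.117), with each array centred on its median (0.076), after scaling (0.0767), without moderation and with 0 kept (0.0724). With the running median subtracted it was larger, at -0.36 and -0.40. Rela was listed at 0 on all 3 arrays.

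All 7 measured genes with nuclear receptor symbols passed the test, 4 positive and 3 negative, beside 70.3% of all genes called (33.2% positive and 37.1% negative). Nr2f2 (COUP-TFII), known for vein and lymphatic identity, read 1.06, 0.89 and 1.07 (mean 1.01 ± 0.10, SD, n = 3, limma adjusted p = 1.4e-05), and its 3 probes averaged 1.34, 1.10 and 0.58. Its paralog Nr2f1 (COUP-TFI) read 0.33, 0.19 and 0.24 (mean 0.25 ± 0.068, SD, n = 3, limma adjusted p = 0.00988), below Nr2f2 on every array. Its call ended without array 1 (0.22, adjusted p = 0.0741) and without moderation, and it was at 0.65 with 5 probe numbers subtracted. The measured endothelial markers fixed here were Esam (2.97), Eng (0.92) and Flt1 (-0.23), and their part in the Nr2f2 ratio was not tested.

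Nr2c2 codes for the orphan receptor TR4 and Nr2c2ap for a protein that binds it, and their ratios had opposite signs. Nr2c2ap read 0.77, 0.78 and 0.81 (mean 0.79 ± 0.025, SD, n = 3, limma adjusted p = 2.73e-05) from 1 probe, while a further probe was measured on array 3 alone, at -0.04. With 0 kept the mean was 0.39. Nr2c2 read -0.29, -0.45 and -0.71 (mean -0.48 ± 0.21, SD, n = 3, limma adjusted p = 0.00223). Its call ended with 0 kept (adjusted p = 0.0685), without moderation and with 5 probe numbers subtracted (-0.17, adjusted p = 0.0798). The value was -0.18 with 20 probe numbers subtracted.

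Nr0b2 (SHP), a repressor of bile acid synthesis in liver that lacks a DNA-binding domain, read 0.50, 0.14 and 0.43 (mean 0.36 ± 0.19, SD, n = 3, limma adjusted p = 0.00704). Its call ended without array 1 (0.29, adjusted p = 0.0548), with 0 kept (adjusted p = 0.0933), without moderation and with 5 probe numbers subtracted, where it was at 0. The subtracted median includes the probe itself, so a 0 arises where the probe's own value is that median. Of the liver markers fixed here Ttr was the 1 measured (1.90), and the exocrine pancreas markers stood at a median of 4.38. Their part in this ratio was not tested. Nr1h4 (FXR), the bile acid receptor that acts on Nr0b2, was listed at 0.

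Nr6a1 (GCNF), a repressor of pluripotency genes in early embryos and germ cells, read between -1.06 and -0.92 on the arrays (mean -0.99 ± 0.070, SD, n = 3, limma adjusted p = 1.11e-05). Nr4a2 (Nurr1), an immediate early gene and a factor of dopamine neurons, read -1.09, -1.71 and -0.49, the widest spread of any member (mean -1.10 ± 0.61, SD, n = 3, limma adjusted p = 0.00194). All 3 arrays were negative, with arrays 2 and 3 far apart. The call ended without moderation and with 0 kept (adjusted p = 0.102), although its 1 probe holds no 0. Its relative Nr4a1 was listed at 0 by both probes.

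SOX genes held the lowest ratios. Sox11, of neural and mesenchymal progenitors, read -2.82, -2.97 and -2.60 (mean -2.80 ± 0.19, SD, n = 3, limma adjusted p = 2.99e-07), which is 6.96-fold lower in spleen in base 2 and 16.4-fold in natural logs, if the likely direction holds. Its 2 fully measured probes agreed, at -2.87 and -2.73, and another read -2.78 and -2.46 on arrays 1 and 3. With 0 kept, which counts a further probe at 0, the mean was -1.84. Sox9, the master factor of cartilage that also acts in testis and in ducts of the pancreas, read -2.71, -2.37 and -2.59 (mean -2.56 ± 0.18, SD, n = 3, limma adjusted p = 4.05e-07). Among 6077 genes Sox11 ranked 6059 and Sox9 6053 from the highest. Sox12, in the same subgroup as Sox11, read -0.81, -0.36 and -0.77 (mean -0.65 ± 0.25, SD, n = 3, limma adjusted p = 0.00082), and its call ended with 0 kept (adjusted p = 0.0542) and without moderation.

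The other SOX symbols did not pass. Sox17 (0.08) and Sox7 (-0.08), both of endothelium and endoderm, had arrays of both signs. Sox5, of cartilage and nerve cells, read -0.13, -0.38 and -0.03 (mean -0.18, limma adjusted p = 0.0852). Without array 3, where the p-values followed the size of the mean alone, it passed (-0.25, adjusted p = 0.0487). It also passed with 5 probe numbers subtracted (-0.16, adjusted p = 0.0308). The antisense RNA Sox5os3, which overlaps Sox5 in the RefSeq annotation, had a mean of -0.04 with arrays of both signs.

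The 1 measured GATA gene and the 1 measured ETS gene were negative, a call that 37.1% of all genes had. Gata6, a zinc finger factor of endoderm, heart and smooth muscle, read -0.54, -0.73 and -0.59 (mean -0.62 ± 0.10, SD, n = 3, limma adjusted p = 0.000159). Ets2, a target of RAS and MAP kinase signals, read -0.77, -0.36 and -0.57 (mean -0.56 ± 0.21, SD, n = 3, limma adjusted p = 0.00097), with probe means of -0.80 and -0.33. The call of Ets2 ended without moderation and with 0 kept (adjusted p = 0.0501), and 5 probe numbers subtracted left -0.25.

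The 7 HOX symbols measured on all 3 arrays ranged from -0.74 to 0.36, with a median size of 0.20. They had 2 positive calls and 1 negative call, beside 33.2% positive and 37.1% negative over all genes. Hoxb6, of the middle of the HOXB cluster, read 0.40, 0.18 and 0.50 (mean 0.36 ± 0.16, SD, n = 3, limma adjusted p = 0.0049), and its call ended without moderation, with 0 kept (adjusted p = 0.0706) and with 5 probe numbers subtracted (0.07, adjusted p = 0.2). With 20 probe numbers subtracted it was at 0.16. Hoxa3, which patterns the thymus and parathyroid, read 0.27, 0.15 and 0.42 (mean 0.28 ± 0.14, SD, n = 3, limma adjusted p = 0.0116). That call ended without array 1 (0.29, adjusted p = 0.0534), without array 3 (0.21, adjusted p = 0.105), without moderation and with 0 kept (adjusted p = 0.0821), and the sign turned with 5 probe numbers subtracted (-0.07). Hoxb1 (0.01) and Hoxa4 (-0.13) did not pass, though Hoxa4 did with 5 probe numbers subtracted (-0.32, adjusted p = 0.00724). Hoxa4 also passed without array 3 (-0.32, adjusted p = 0.0111), where the p-values followed the size of the mean alone.

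Hoxaas2, an antisense RNA that overlaps Hoxa3 in the RefSeq annotation, was the lowest HOX symbol measured on all 3 arrays. It read -0.86, -0.85 and -0.52 (mean -0.74 ± 0.19, SD, n = 3, limma adjusted p = 0.000198), opposite in sign to Hoxa3 on every array. With 0 kept it was at -0.37 and still called, a further probe being at 0. Hoxaas3, which overlaps Hoxa3, Hoxa5 and Hoxa6, averaged -0.20 with array 3 positive and did not pass. It did without array 3 (-0.36, adjusted p = 0.00447), where the p-values followed the size of the mean alone. Hoxd3os1, which overlaps Hoxd3, averaged 0.10 and did not pass, yet with 5 probe numbers subtracted it passed as negative (-0.29, adjusted p = 0.0178) and with 20 as positive (0.27, adjusted p = 0.00253). With unknown probe strands, signal from a gene and from its antisense partner cannot be told apart here.

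The other 17 genes with a family symbol fell outside the members for want of a value on all 3 arrays, and they include some large ratios. Among the 5 with values on 2 arrays, Klf12 read 3.19 and 2.82 on arrays 1 and 3, above the mean of any member. Foxp2 read 1.01 and 1.06 on the same arrays, and Elf2 read 0.53 and 0.54 on arrays 2 and 3. Hoxc9 read -1.25 and -1.47 on arrays 1 and 3, and Pax3, of neural crest and muscle, -1.05 and -1.13 on arrays 2 and 3. The 5 with 1 value were Klf13 (0.37), Gata2 (0.21), Hoxb5 (0.01), Tcf21 (-0.08) and Tbx18 (-0.30). The 7 listed at 0 throughout were Irf8, a known factor of B cells and macrophages, Nr1h4, Nr4a1, Rela, Sox1, Tcf20 and Tcf7l2. A listed 0 gives no level in either RNA.

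The lists of transcription factor genes outside these families were chosen with earlier results known and were measured in small part, so their counts are a description with no test of a difference. Of 15 measured genes, of 47 listed, of other blood cell transcription factors, 13 were positive and 2 negative, with a median of 1.07, beside 33.2% positive and a median of -0.03 over all genes. They were led by Satb1 (4.69), the LIM protein Lmo2 (2.58) and the homeobox gene Hhex (2.47). Of 8 measured mesenchymal and patterning factors, of 61 listed, 6 were negative, 0 positive and 2 not past the test, with a median of -0.76, led by Twist2 (-3.29), Prrx1 (-1.98) and Prrx2 (-1.73). Over all genes 37.1% were negative. The median of the members was 0.09.

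Partners and upstream genes were called in both directions, to be read beside 70.3% of all genes called, 33.2% positive and 37.1% negative. Of 12 measured partners of HOX, GATA, RUNX and TCF factors, of 33 listed, 7 were positive and 5 negative (median 0.35). Zfpm2, a cofactor of GATA proteins, was at -4.07, Lmo2 at 2.58 and Id1, which blocks E proteins, at -2.19. Lmo2, Id2 and Id3 are also counted among the other blood cell transcription factors above. Of 7 measured genes upstream of NF-kappa B, of 37 listed, 6 were positive and 1 negative (median 0.57). Traf1 was at 1.80, the kinase Ikbkb at 0.96 and Cyld, a deubiquitinase, at 0.59. JAK-STAT and interferon receptor genes gave 6 positive and 6 negative calls of 14 measured and 29 listed (median 0.004). The receptor Il10ra was at 2.01, the kinase Tyk2 at 1.22 and Socs5 at -1.17.

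Of 24 listed receptors of the nuclear receptor class without an Nr symbol, 4 were measured. They gave 1 positive and 2 negative calls, beside 33.2% and 37.1% of all genes. The retinoic acid receptors Rarg (-1.45) and Rara (-0.85) were negative and the retinoid X receptor Rxrb was positive (0.62). Of 3 measured coregulators, of 23 listed, the coactivator Ncoa3 (1.33) and Tbl1xr1 (0.75) were positive and the deacetylase Hdac3 (-0.51) negative.

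**Figure D3:**
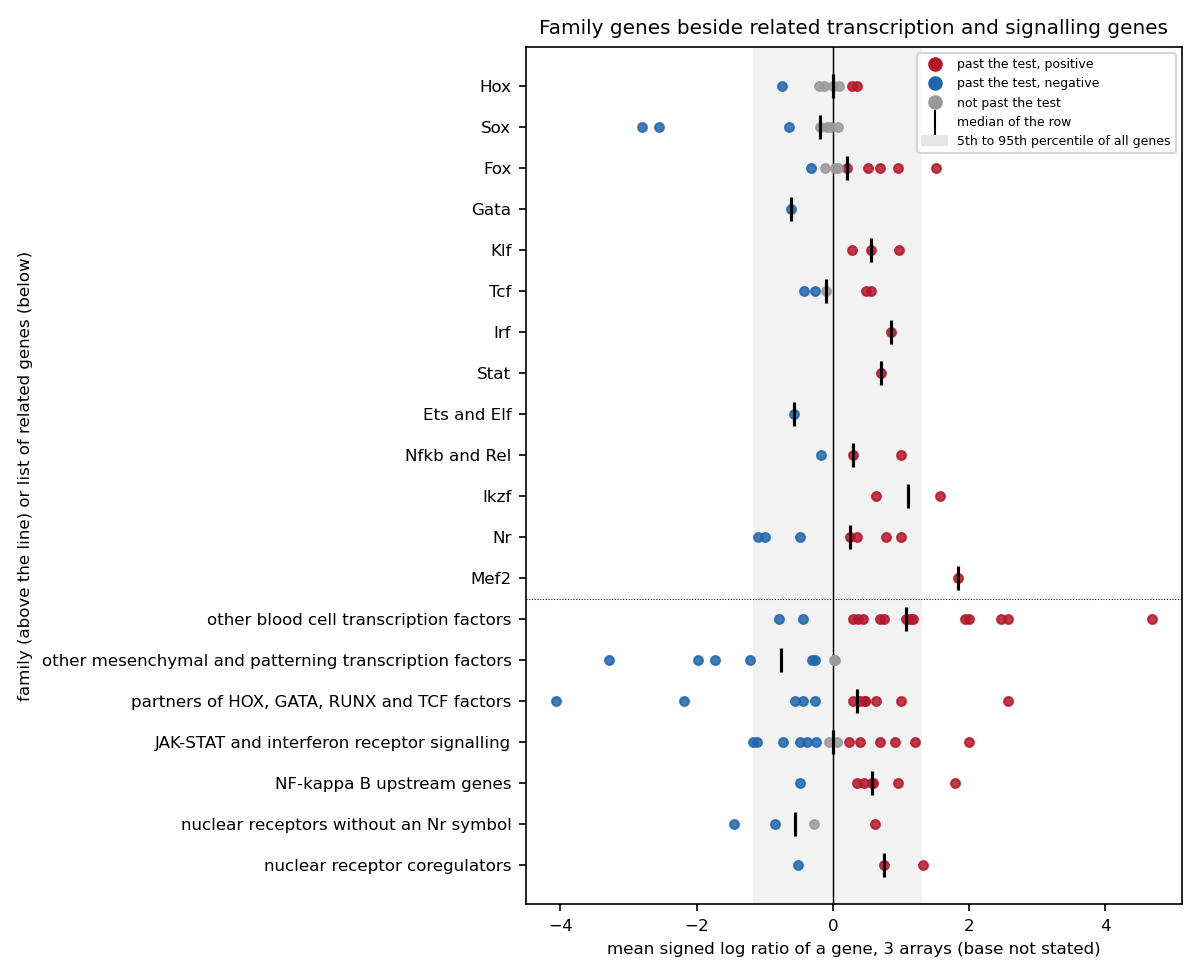
Mean signed log ratio of each gene over 3 arrays (horizontal axis, base not stated), in rows for the member families above the dotted line and for related gene lists below it. Red and blue points passed the test with a positive or negative mean, grey points did not, black bars are row medians and the grey band spans the 5th to 95th percentile of all genes (-1.15 to 1.29). Mef2c, Ikzf3, Foxo1, Sox9 and Sox11 lie outside the band.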

How the data were processed

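The 3 two-colour arrays of spleen (Cy5) and reference RNA (Cy3), per the labels, form 1 group. The authors deposited, for 16273 probes, a signed log ratio on each array. How images were read, corrected and normalized, and which base and numerator the ratios have, is not given in the sources used here. Log2 ratios had been assumed in the design. As the base is not stated, the deposited values entered the tests unchanged. Another base would alter folds and leave the tests against 0 as they are. No intensities were analysed, so signal over background is unknown, and the number of arrays limits the precision.

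Exact zeros were taken as missing, so 11086 probes had values on all 3 arrays. Gene names came from the platform annotation: 12336 probes have 1 symbol, 61 several and 3876 none. Probes of a gene were averaged (6077 genes). The gene IDs of all 48 members were found in a RefSeq table (GRCm38.p6) and 0 symbols changed. The test of each ratio against 0 used limma 3.58.1 (R 4.3.3), with an intercept fit, moderated variance and Benjamini-Hochberg adjustment over all genes. In simulated data of 6077 genes with 50 shifted at each size, the test of the ratio against 0 recovered 1 gene shifted by 0.25, 34 by 0.5, 46 by 1 and 49 by 2, with 6 false calls among the rest. In the arrays 70.3% of genes were called, a far larger share than was shifted there, which loosens the adjusted cut-off. Members were called at sizes down to 0.18. The simulated recovery of small shifts therefore does not carry over to these data.

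Members and lists were chosen with earlier results of these data known. In each family up to 4 highest and 4 lowest called members with the same sign on all arrays were named, with any whose probes were called in opposite directions and uncalled ones as such, and in each other list up to 3 called genes with the largest mean in size. Other genes were named after their values were seen. The 15 other settings, among them leaving out each array, are given in the closing section. They include the subtraction, on each array, of a running median. It is the median of all probes within 5 or 20 probe numbers, the probe itself included. The reason was that deviations of neighbouring probe numbers from the mean of the arrays correlated at 0.441 to 0.588. Plots were made in Python 3.11.15 (matplotlib 3.10.9).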

Additional observations from a re-analysis of the deposited data

How the results depend on the processing

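Quantile normalization, the median of the probes and probes measured on at least 2 arrays changed no member's direction or call, and centring and scaling ended that of Nfkb2 alone. Counts of member calls moved by over 1.5 times under 4 settings. Against a 1.5-fold change in base 2 there were 9 positive and 3 negative members and 1208 genes, and in natural logs 11, 6 and 1771. Without moderation of the variance there were 12, 5 and 2770. With 0 kept 6 family genes were negative and 17 positive, of 65 in the fit instead of 48. Of all genes 3263 were called, of 7984 in the fit instead of 6077. Under that setting only the negative count moved by over 1.5 times. Among the lost calls, Nr4a2 has no 0 in its probe and kept its mean of -1.10. Its limma adjusted p rose from 0.00194 to 0.102. Hoxa3, also without a 0, kept 0.28 and rose from 0.0116 to 0.0821. Such lost calls show no dependence on a gene's own zeros. The cause of the moves under these 4 settings was not tested, beyond the fewer genes that a larger null change admits. Leaving out an array gave 18 to 22 positive members, 10 to 13 negative members and 3660 to 4151 genes. Without array 3 the limma adjusted p of the members followed the size of the mean alone. It was 3.68e-127 for Sox11 (-2.90), 0.0487 for Sox5 (-0.25) and 0.0493 for Foxn2 (0.25). Those p-values do not measure the spread of a gene between the arrays left. Values turned sign with 5 probe numbers subtracted for Hoxa3 (-0.070), Klf9 (-0.0030), Hoxd3os1 (-0.289), Foxk2 (-0.072) and Foxi1 (-0.546), with 20 for Foxi1 (-0.152) and Sox7 (0.0069), without array 2 for Sox7 and without array 3 for Sox5os3. Leaving out an array gave -0.146 to 0.039 for Sox7 and -0.116 to 0.102 for Sox5os3. Apart from Hoxa3 and Klf9 these were not called to begin with. At an adjusted p under 0.01, 5 members lost their call (Hoxa3, Foxn2, Foxp4, Tcf25 and Nfkb2). No paired analysis was possible because the arrays form 1 group.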
